A study of Mus musculus with 10 samples.

Results

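Semaphorins and their plexin receptors were followed in sorted lung endothelial cells of neonatal mice through 9 genes: the ligand genes Sema3c, Sema3f, Sema3g, Sema6a and Sema6d and the receptor genes Plxna1, Plxna2, Plxnb2 and Plxnd1. All 20 array probes annotated to these genes were taken, among 46237 probes on each array. The 9 genes had been picked with their detection, baseline level and change with each deletion already known. Their values below are therefore descriptions, and nothing is read from a test of a deletion on them. A total of 18 of the 20 probes, covering 8 of the 9 genes, were detected on at least 2 arrays (a deposited detection p below 0.05) and entered the fit of 16144 genes.

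The 10 arrays, 1 per sample, came from C57/Bl6 mice at postnatal day 6. Rspo3-iECKO (3 arrays) were Rspo3fl/fl mice carrying Cdh5CreERT2, a tamoxifen-inducible Cre recombinase under the promoter of the endothelial VE-cadherin gene, and Rspo3-WT (2 arrays) were Rspo3fl/fl mice without that transgene. Evi-iECKO (2 arrays) were Evifl/fl mice carrying Cdh5CreERT2, and Evi-WT (3 arrays) were Evifl/fl mice without it. All 4 groups therefore carried a floxed gene on each allele, and the presence of the Cre transgene cannot be told apart from the deletion. Rspo3 encodes a secreted amplifier of Wnt signals, and Evi, also called Wls, encodes the carrier that brings Wnt ligands to the cell surface. When tamoxifen was given, which surface markers guided the sort, and whether 1 mouse or several made up a sample are unknown here.

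Semaphorins are guidance proteins first described in growing axons, and they also steer blood vessels. Class 3 semaphorins are secreted and mostly bind neuropilins, which pass the signal on through A-type plexins or plexin D1, whereas class 6 semaphorins are membrane-bound and bind A-type plexins directly. Plexins carry a GTPase-activating domain in their cytoplasmic part, loosen integrin adhesion and collapse the cytoskeleton at the leading edge, and in endothelium plexin D1 and neuropilins help to set where sprouts may grow.

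Levels are log2 intensities after background correction and quantile normalization. They compare arrays for 1 probe and never 1 probe with another. In bulk RNA, fewer cells of a type and less RNA per cell cannot be told apart. Between 46.5% and 51.3% of probes were detected per array. All 7 endothelial markers were measured. Their mean level was 9.15 to 9.34 on the arrays of the Rspo3 line and 8.84 to 9.05 on those of the Evi/Wls line. Between Evi-iECKO and Evi-WT Tek differed by -0.59 (SE 0.17) and the other endothelial markers by -0.07 to 0.10. Wls checked the Evi/Wls label, at 4.85 and 4.68 in Evi-iECKO against 5.68, 6.21 and 5.69 in Evi-WT at its brightest probe, and Rspo3-iECKO replicate 1 was also low there, at 4.96. Rspo3 was detected on no array of the Rspo3 line, so its deletion is not checked here. The Evi-iECKO arrays stood apart from each other, correlating less than any other 2 arrays did (Pearson's r 0.931, taken across genes, which are not independent). Of 6 epithelial markers 4 were measured, and their mean level was 4.66 in Evi-iECKO replicate 1 and 6.97 in replicate 2, against 5.004, 5.46 and 5.62 in Evi-WT. Cdh1, Sftpc and Sftpb were higher in replicate 2 than in replicate 1. Krt8 went the other way, at 4.64 in replicate 1 and 4.54 in replicate 2. In the Rspo3 line the epithelial mean ranged over 5.56 to 6.02 in Rspo3-iECKO, against 5.76 and 5.98 in Rspo3-WT. The erythroid markers averaged 7.74 in Evi-iECKO replicate 1 and 8.86 in replicate 2, against 8.73 to 9.44 in Evi-WT. The fibroblast markers, of which all 5 were measured, averaged 4.64 and 4.79 in Evi-iECKO against 4.44, 4.47 and 4.49 in Evi-WT. In the Rspo3 line they averaged 5.04, 4.91 and 4.97 in Rspo3-iECKO against 4.78 and 4.68 in Rspo3-WT. Neither line's groups overlapped, as for 20.0% of single genes in the Evi/Wls line and 22.6% in the Rspo3 line. Col3a1 differed most in the Evi/Wls line (log2 difference 0.62, the others 0.14 to 0.21). In the Rspo3 line Dcn differed by 0.82, Col1a1 and Pdgfra by 0.22 and 0.18, and Col3a1 and Col1a2 by 0.03 and -0.05. Dcn was detected on only 4 arrays and read 4.11 and 4.12 in Rspo3-WT, and Pdgfra was detected on only 2. The fitted differences of Dcn and Pdgfra are therefore not well measured sizes. The 5 leukocyte markers averaged 4.91 in Evi-iECKO replicate 1 and 5.41 in replicate 2, against 4.98 to 5.01 in Evi-WT. The higher mean in replicate 2 came from Lyz2 alone, at 4.97 in replicate 1 and 8.06 in replicate 2. Ptprc, Cd68 and Csf1r were each lower in replicate 2 than in replicate 1. Cd3e was nearly equal, at 4.18 in replicate 1 and 4.17 in replicate 2. Ptprc was detected on only 4 arrays and Cd3e on only 3. The part of these other cells in the member values was not tested.

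The largest difference among the members was that of Plxna2, the gene for plexin A2, a receptor for class 6 semaphorins and, with neuropilins, for class 3 semaphorins. Its detected probe (ILMN_2701815) read 7.92 and 8.01 in Evi-iECKO, against 7.15, 6.62 and 6.85 in Evi-WT. In the other line it read 7.08, 6.96 and 7.32 in Rspo3-iECKO, against 6.88 and 7.02 in Rspo3-WT. Both Evi-iECKO arrays therefore lay above all 8 other arrays, while the levels of Rspo3-iECKO, Rspo3-WT and Evi-WT overlapped. The log2 difference was 1.09 (SE 0.20) between Evi-iECKO and Evi-WT, a 2.13-fold higher level, and 0.17 (SE 0.20) between Rspo3-iECKO and Rspo3-WT. Without Evi-iECKO replicate 1 the Evi/Wls difference was 1.14, and without replicate 2 it was 1.05. On the authors' own normalized scale, which is linear, the same probe read 335 and 351 in Evi-iECKO against 227, 180 and 198 in Evi-WT, a log2 difference of 0.77. The other Plxna2 probe (ILMN_2482866) was detected on no array and gives no second reading.

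The promoters of Plxna2 and Sema3c are shown because their brightest probes differed most between Evi-iECKO and Evi-WT, although with the mean of all probes Sema6a (-0.39) exceeded Sema3c (-0.29). The windows run from 250 bases before to 50 bases after the annotated start in RefSeq's GRCm38.p6 annotation, chr1:194619579-194619878 on the plus strand for Plxna2 and chr5:17574566-17574865 on the plus strand for Sema3c. Capitals mark matches on either strand to a TCF/LEF word (CTTTGAA, the word CTTTGAT, the word CTTTGTA or the word CTTTGTT), to the ETS core GGAAGT or to the GC box, spelled GGGCGG, none of which overlapped here.
Plxna2: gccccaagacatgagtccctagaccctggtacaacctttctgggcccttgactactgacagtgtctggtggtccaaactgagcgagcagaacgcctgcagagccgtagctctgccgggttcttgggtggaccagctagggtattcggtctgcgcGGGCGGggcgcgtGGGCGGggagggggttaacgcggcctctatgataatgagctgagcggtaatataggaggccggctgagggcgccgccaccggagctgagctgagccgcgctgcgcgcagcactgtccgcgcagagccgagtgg
Sema3c: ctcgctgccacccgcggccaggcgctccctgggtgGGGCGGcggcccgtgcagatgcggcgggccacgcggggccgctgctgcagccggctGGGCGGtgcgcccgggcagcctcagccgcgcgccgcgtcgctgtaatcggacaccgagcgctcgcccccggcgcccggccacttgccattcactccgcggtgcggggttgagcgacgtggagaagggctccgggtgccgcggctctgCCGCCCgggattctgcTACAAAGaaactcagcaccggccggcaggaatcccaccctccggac
Plxna2 held 2 GC boxes and neither a TCF/LEF word nor an ETS core. Sema3c held 3 GC boxes and 1 TCF/LEF word, CTTTGTA on the minus strand, at bases 5 to 11 after the start. TCF/LEF factors are the DNA-binding partners of beta-catenin in Wnt signalling. A TCF/LEF word occurred in 16.9% of all 32851 promoter windows of this length, an ETS core in 23.8% and a GC box in 35.7%. Both windows were rich in CpG, with an observed over expected ratio of 0.814 for Plxna2 and 0.979 for Sema3c, against a median of 0.384 over all windows. Among the 6 member genes with a window in the table, Sema6d, which has 2 windows, held the only ETS core, in the first, and another TCF/LEF word, in the second. These matches describe letters and not bound sites.

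**Figure D1:**
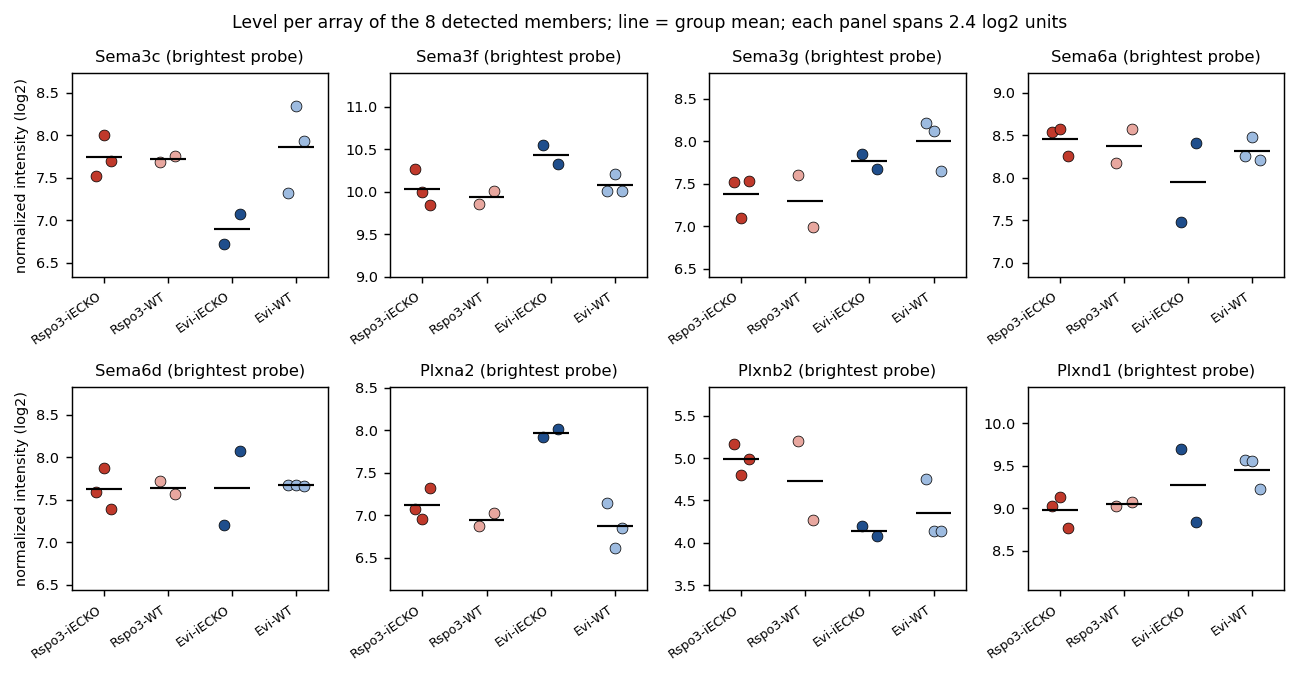
Normalized intensity (log2) of the brightest probe of each of the 8 detected members on every array, grouped by Rspo3-iECKO, Rspo3-WT, Evi-iECKO and Evi-WT, with a line at each group mean. The Evi-iECKO points of Plxna2 (7.92 and 8.01) lie above all other arrays and those of Sema3c (6.72 and 7.07) below all other arrays.

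Among the secreted ligands, Sema3c, a class 3 semaphorin needed for septation of the cardiac outflow tract, gave opposite readings at its 2 probes. The brighter probe (ILMN_1238568, annotated to a cDNA clone) read 6.72 and 7.07 in Evi-iECKO, against 7.32, 8.34 and 7.94 in Evi-WT. The dimmer probe (ILMN_2673323, annotated to the RefSeq transcript) read 6.28 and 6.61 in Evi-iECKO, against 6.34, 6.19 and 5.61 in Evi-WT. At the brighter probe both Evi-iECKO arrays lay below all other arrays, whereas at the dimmer probe the groups overlapped. The log2 differences were -0.97 (SE 0.27) at the brighter probe and 0.40 (SE 0.25) at the dimmer one, and the mean of the probes gave -0.29. Without Evi-iECKO replicate 1 the brighter probe gave -0.80, and without replicate 2 it gave -1.15. Over the 10 arrays the probes had a Pearson's r of -0.24, although each was detected on all 10 arrays. The lower level of Sema3c in Evi-iECKO was seen at 1 probe and not at the other.

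In the Rspo3 line Sema3c did not differ at either probe beyond its standard error. The brighter probe read 7.52, 8.01 and 7.69 in Rspo3-iECKO, against 7.69 and 7.76 in Rspo3-WT, a log2 difference of 0.02 (SE 0.27). The dimmer probe read 6.02, 6.53 and 6.55 in Rspo3-iECKO, against 6.59 and 6.24 in Rspo3-WT, a log2 difference of -0.05 (SE 0.25). The Rspo3-WT values lay within or close to the range of Rspo3-iECKO at both probes.

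Sema3f, a secreted ligand that acts through neuropilin 2 and is known to repel endothelial and lymphatic cells, was detected by 3 probes on every array. Its brightest probe (ILMN_1248740) read 10.54 and 10.33 in Evi-iECKO, against 10.01, 10.20 and 10.01 in Evi-WT. The same probe read 10.26, 10.00 and 9.85 in Rspo3-iECKO, against 9.86 and 10.01 in Rspo3-WT. The Evi-iECKO arrays lay above all other arrays at this probe, and the remaining groups overlapped. The log2 differences between Evi-iECKO and Evi-WT were 0.36 (SE 0.18), 0.31 (SE 0.20) and 0.13 (SE 0.22) from the brightest to the dimmest probe, and only at the brightest did the groups not overlap. That probe gave 0.26 without Evi-iECKO replicate 1 and 0.47 without replicate 2. Between Rspo3-iECKO and Rspo3-WT the 3 probes gave 0.10 (SE 0.18), -0.10 (SE 0.20) and -0.19 (SE 0.22), with overlapping groups at each.

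Sema3g, a class 3 semaphorin known from arterial endothelium, was read by 1 probe (ILMN_2925225), detected on every array. It read 7.85 and 7.68 in Evi-iECKO, against 8.22, 8.12 and 7.66 in Evi-WT, a log2 difference of -0.23 (SE 0.24), which was -0.32 without Evi-iECKO replicate 1 and -0.15 without replicate 2. It read 7.52, 7.10 and 7.53 in Rspo3-iECKO, against 7.61 and 6.99 in Rspo3-WT, a log2 difference of 0.09 (SE 0.24). Each deletion thus left overlapping groups, and all 5 arrays of the Evi/Wls line lay above all 5 arrays of the Rspo3 line. On the authors' normalized scale the lines overlapped, with Rspo3-WT replicate 1 at 291 and Evi-WT replicate 3 at 289. The share of all genes with lines so separated was not counted, so nothing is read from it. Without Rspo3-WT replicate 1 the Rspo3 difference was 0.40 and without replicate 2 it was -0.22, so its sign rested on which control was kept.

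Sema6a, a membrane-bound ligand of plexins A2 and A4, was detected by 4 probes on every array. The brightest (ILMN_1215472) read 7.48 and 8.41 in Evi-iECKO, against 8.25, 8.48 and 8.21 in Evi-WT. In the other line it read 8.54, 8.58 and 8.26 in Rspo3-iECKO, against 8.18 and 8.57 in Rspo3-WT. Evi-iECKO replicate 1 was the lowest of the 10 arrays at all 4 probes, and replicate 2 lay within or just below the range of Evi-WT. The log2 differences between Evi-iECKO and Evi-WT were -0.37 (SE 0.25), -0.32 (SE 0.21), -0.41 (SE 0.22) and -0.46 (SE 0.23) at the 4 probes, and the groups overlapped at all but the dimmest. Without Evi-iECKO replicate 1 the brightest probe gave 0.10, and without replicate 2 it gave -0.83. Between Rspo3-iECKO and Rspo3-WT the 4 probes lay between -0.13 and 0.08 with overlapping groups, and probe pairs of Sema6a correlated at r of 0.58 to 0.87 over the 10 arrays.

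Sema6d, a membrane-bound ligand of plexin A1 that takes part in shaping the embryonic heart, was also detected by 4 probes on every array. The brightest (ILMN_2680415) read 7.20 and 8.07 in Evi-iECKO, against 7.68, 7.67 and 7.66 in Evi-WT. It read 7.59, 7.88 and 7.39 in Rspo3-iECKO, against 7.72 and 7.57 in Rspo3-WT. The Evi-WT arrays were almost equal, and the Evi-iECKO arrays lay on either side of them. Evi-iECKO replicate 2, the array with the highest mean of the epithelial markers, was the highest of all 10 arrays at each of the 4 Sema6d probes. It reached 7.18 at the dimmest (ILMN_3103992, annotated to another transcript of the gene) against 6.06 in replicate 1. The log2 differences between Evi-iECKO and Evi-WT were -0.04 (SE 0.24), 0.35 (SE 0.21), 0.11 (SE 0.17) and 0.36 (SE 0.26), and those between Rspo3-iECKO and Rspo3-WT lay between -0.08 and 0.01. At the brightest probe the Evi/Wls difference was 0.40 without Evi-iECKO replicate 1 and -0.47 without replicate 2.

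Among the other receptors, Plxnd1, the endothelial plexin that answers Sema3e and restrains sprouting, was bright but its 2 probes went apart. The brighter probe (ILMN_1214608) read 9.70 and 8.83 in Evi-iECKO, against 9.57, 9.55 and 9.23 in Evi-WT. The dimmer probe (ILMN_3162354) read 6.82 and 7.86 in Evi-iECKO, against 6.80, 7.08 and 7.39 in Evi-WT. The Evi-iECKO arrays were thus in opposite order at the 2 probes, replicate 1 being the higher at the brighter probe and replicate 2 at the dimmer. The log2 differences were -0.18 (SE 0.24) and 0.25 (SE 0.28), with overlapping groups at each probe, and over the 10 arrays the probes had an r of -0.46. Without Evi-iECKO replicate 1 the brighter probe gave -0.62 and the dimmer 0.77, and without replicate 2 they gave 0.25 and -0.27.

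In the Rspo3 line the 2 Plxnd1 probes lay close together. The brighter read 9.02, 9.14 and 8.76 in Rspo3-iECKO, against 9.03 and 9.07 in Rspo3-WT. The dimmer read 6.94, 7.29 and 6.91 in Rspo3-iECKO, against 6.997 and 7.26 in Rspo3-WT. Their log2 differences were both -0.08 (SE 0.24 and 0.28), smaller than the spread between replicates.

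**Figure D2:**
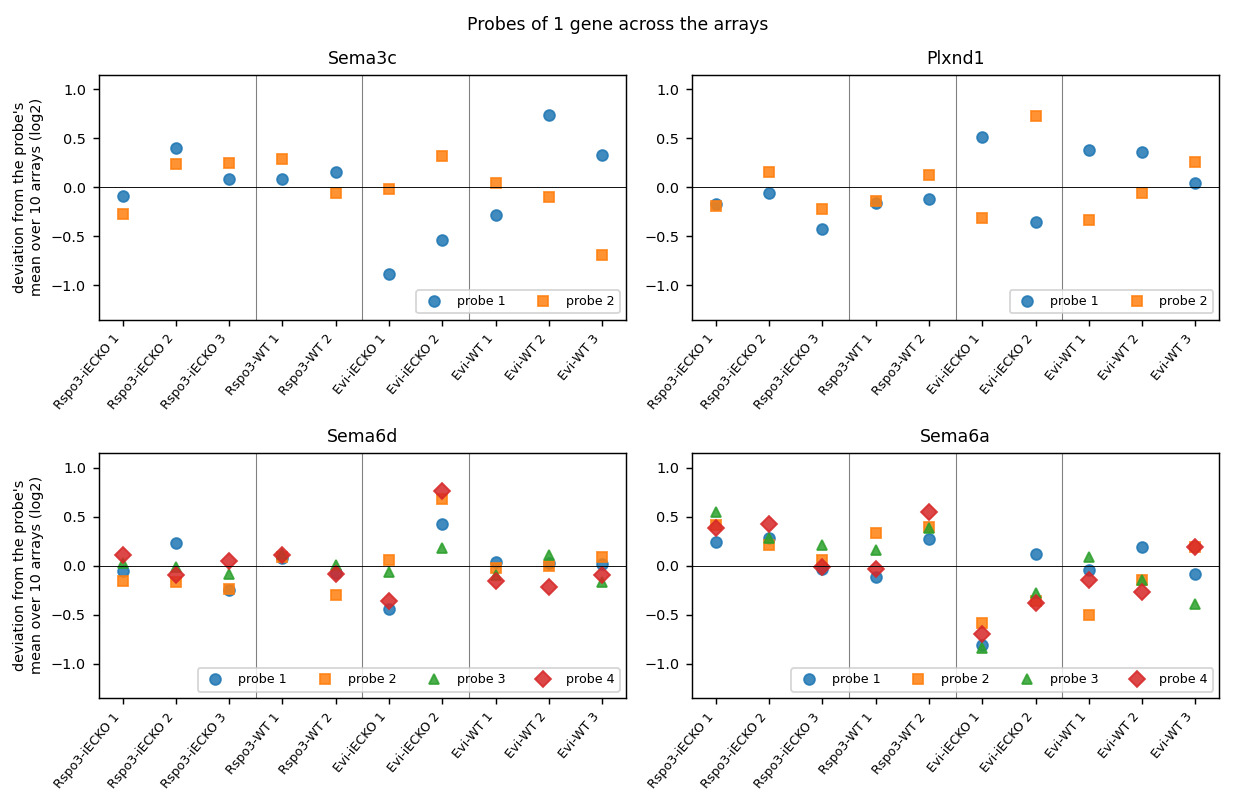
Deviation of each detected probe of Sema3c, Plxnd1, Sema6d and Sema6a from its own mean over the 10 arrays (log2), 1 column of points per array. The Sema6a probes move together, Evi-iECKO replicate 2 is the highest array at all 4 Sema6d probes, and the 2 probes of Sema3c and of Plxnd1 part in the Evi/Wls line.

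Plxnb2, a receptor for class 4 semaphorins, and Plxna1, a receptor for Sema6d, were near background. The Plxnb2 probe (ILMN_2461098) read 5.16, 4.81 and 4.99 in Rspo3-iECKO, against 5.20 and 4.27 in Rspo3-WT, and was detected on all 3 and on 1 of the 2 arrays. It read 4.20 and 4.09 in Evi-iECKO, against 4.76, 4.15 and 4.14 in Evi-WT, and was detected on none and on 1 of 3 arrays. It was thus detected on 1 of 5 arrays of the Evi/Wls line and on 4 of 5 of the Rspo3 line. The log2 difference was 0.25 (SE 0.27) between Rspo3-iECKO and Rspo3-WT, and it was 0.71 without Rspo3-WT replicate 1 and -0.21 without replicate 2. Because the Plxnb2 probe was detected on no Evi-iECKO array and on 1 of 3 Evi-WT arrays, the Evi/Wls difference has no measured size. Its fitted value was -0.20, and it was 0.0007 without Evi-WT replicate 1. Plxna1 (ILMN_2918155) was detected on 1 array, Rspo3-iECKO replicate 2 at 4.66, missed the filter of 2 arrays and was not fitted, whereas Plxnb2 passed it with 5 arrays.

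Counted over the 8 fitted members, no gene passed the limma test adjusted by Benjamini-Hochberg over all 16144 genes for the Rspo3 deletion, where 0% of all genes passed, or for the Evi/Wls deletion, where 0% passed as well. At an unadjusted p below 0.05, none of the 8 was counted for the Rspo3 deletion, against 2.35% of all genes higher and 2.01% lower. For the Evi/Wls deletion Plxna2 was counted higher, against 4.47% of all genes, and Sema3c lower, against 3.52%. At their brightest probes Evi-iECKO and Evi-WT did not overlap for 3 of the 8 members, against 20.0% of all genes (Plxna2 and Sema3f higher, as 10.8% were, and Sema3c lower, as 9.20% were), and Rspo3-iECKO and Rspo3-WT for none, against 22.6%. As these changes entered the choice of the genes, nothing is read from the counts. The median log2 difference of the members was -0.19 for the Evi/Wls deletion, with 2 positive and 6 negative (Plxnb2 by its fitted value near background), against 0.01 over all genes. For the Rspo3 deletion it was 0.09, with 6 positive and 2 negative, against -0.01 over all genes. With median scaling in place of quantile normalization all 8 were positive for the Rspo3 deletion (0.21 to 0.45), and the median of all genes was then 0.11.

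**Figure D3:**
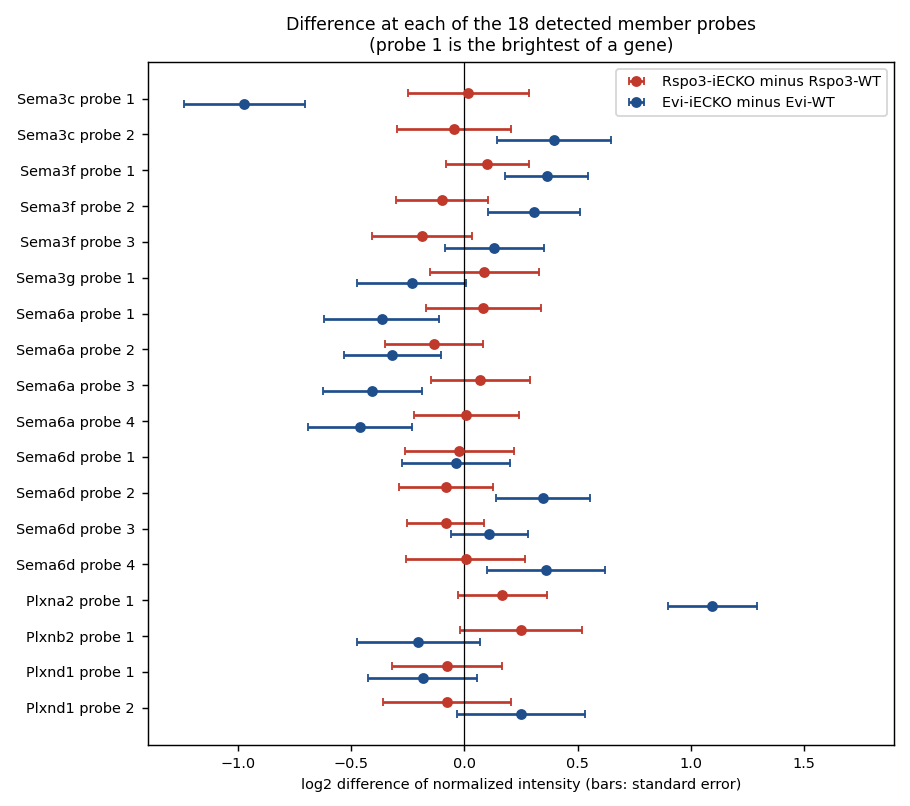
Log2 difference with its standard error at each of the 18 detected member probes, for Rspo3-iECKO minus Rspo3-WT and Evi-iECKO minus Evi-WT, with probe 1 the brightest of a gene. Plxna2 (1.09) and the brighter Sema3c probe (-0.97) lie farthest from 0 in the Evi/Wls line, where the Plxnb2 point is fitted to a probe not well above background in Evi-iECKO, and every difference in the Rspo3 line lies between -0.19 and 0.25.

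**Figure D4:**
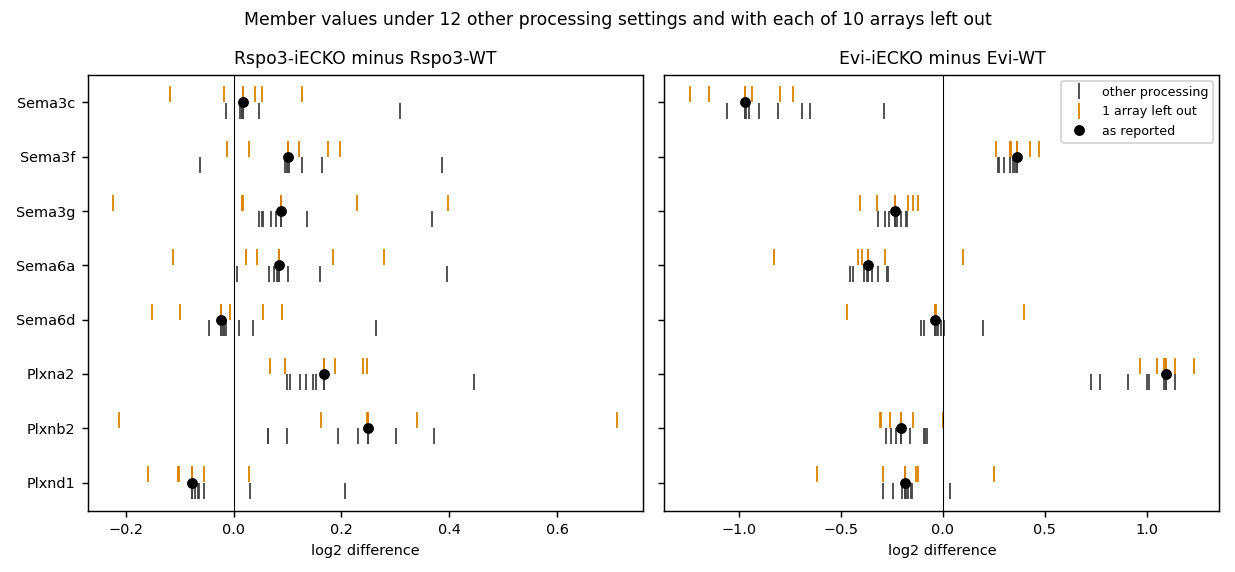
Log2 difference of the brightest probe of each fitted member as reported (dots), for Rspo3-iECKO minus Rspo3-WT and Evi-iECKO minus Evi-WT. Dark ticks show 12 other processing settings, including the mean of all detected probes of a gene. Orange ticks show each of the 10 arrays left out in turn. Plxna2 stays between 0.73 and 1.23 in the Evi/Wls line, whereas Sema6a, Sema6d, Plxnd1 and Plxnb2 (barely, to 0.0007) change sign there with 1 array left out.

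The study asked, by its title, which endothelial genes move together under the 2 deletions. The mean of the 2 deletion effects is given here, although 1 large effect alone can move that mean. None of the 8 members passed for this mean after adjustment in limma (0% of all genes did). Without adjustment Plxna2 counted as higher (3.21% of all genes) and Sema3c as lower (2.60%). Plxna2 had a joint log2 difference of 0.63 (SE 0.14), made up of 0.17 for Rspo3 and 1.09 for Evi/Wls. The brighter Sema3c probe had -0.48 (SE 0.19), made up of 0.02 and -0.97, whereas the dimmer had 0.18 (SE 0.18) and the mean of the probes gave -0.15. For Plxna2 and for the brighter Sema3c probe the larger component of the joint value was the Evi/Wls one. Leaving out Evi-iECKO replicate 1 and then replicate 2 gave 0.65 and 0.61 for Plxna2, and -0.39 and -0.56 for the brighter Sema3c probe. The Rspo3 effect minus the Evi/Wls effect was -0.93 (SE 0.28) for Plxna2 and 0.99 (SE 0.38) for the brighter Sema3c probe. It was -0.56 for Plxna2 with median scaling and 0.27 for Sema3c with the mean of the probes, and 0% of all genes passed for that difference after adjustment. Unadjusted, Sema3c counted on the positive side with 2.66% of all genes and Plxna2 on the negative side with 3.41%. As the changes with each deletion chose the genes, nothing is read from these counts either.

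The control arms of the lines were also set side by side, as a description, since the baseline level had entered the choice of the genes. Sema3g read 7.61 and 6.99 in Rspo3-WT, against 8.22, 8.12 and 7.66 in Evi-WT, a log2 difference of -0.70 (SE 0.24). It was -1.01 without Rspo3-WT replicate 1 and -0.39 without replicate 2, and it was also -0.39 with median scaling. At the brighter Plxnd1 probe the difference was -0.40 (SE 0.24), but it was 0.04 (SE 0.28) at the dimmer one, -0.18 for their mean and -0.12 with median scaling. All Rspo3-WT arrays lay below all Evi-WT arrays for these 2 of the 8 members at their brightest probes. Over all genes 13.5% were without overlap in that direction and 25.5% in either. On the authors' normalized scale the Sema3g groups overlapped, with Rspo3-WT replicate 1 at 291 and Evi-WT replicate 3 at 289. Sema6a lay at 0.06 (SE 0.25) at its brightest probe but at 0.52 and 0.43, without overlap, at the next ones. The brightest probes of the other 5 members lay between -0.15 and 0.39. None of the 8 was counted after adjustment in limma, where 0.0372% of all genes were, and at an unadjusted p below 0.05 Sema3g alone was counted, as lower, against 4.27% of all genes lower and 4.53% higher. Nothing is read from these counts, and the line cannot be told apart from any difference in when or how its samples were handled.

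Genes whose level followed a member most closely over the 10 arrays were ranked by Pearson's r, as a description, since the arrays are shared and the best of 16144 genes is always high. For Plxna2 they were Unc93a (0.95), Tprn (0.92) and Mfsd14a (0.92), and for Sema3c Snx29 (0.90), Trip4 and Inafm1 (both 0.88). For Sema3f they were Midn, Slc16a7 and Trank1 (0.92 to 0.93), and for Sema3g Atp6ap2, Rgs9 and Herc2 (0.92 to 0.93). Sema6a had Fscn1, which encodes the actin-bundling protein fascin, Clic5 and Slc2a10 (0.91 to 0.93). Sema6d had Ttc1, the endothelial receptor gene Heg1 and Sec14l4 (0.91 to 0.94). Plxnb2 had Emc1, Mea1 and Galm (0.93 to 0.95), and Plxnd1 had Cbfa2t2, Supt6 and Sntg1 (0.92 to 0.97). No member was among the closest 3 of another.

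The rest of the pathway was read from a list of 58 other ligands, plexins, co-receptors and effectors, of which 46 were measured. None passed in limma after adjustment over all genes for either deletion. For the Evi/Wls deletion 2 had an unadjusted p below 0.05 and were higher and 4 were lower, against 4.47% of all genes higher and 3.52% lower, and the list's median was 0.02 against 0.01 over all genes. Of these 6, 4 were effectors, as were 26 of the 46 measured. Mical3, of the MICAL family of actin-oxidising enzymes that act downstream of plexins, read 5.46 and 4.69 in Evi-iECKO against 6.02, 6.43 and 6.19 in Evi-WT (-1.14, SE 0.26, limma adjusted p = 0.312). Limk1, a kinase that inactivates cofilin, read 6.19 and 5.58 in Evi-iECKO against 5.30, 4.46 and 5.03 in Evi-WT (0.96, SE 0.29, limma adjusted p = 0.469). Neither gene's groups overlapped, as for 8 of the 46 listed genes measured and 20.0% of all genes, and neither passed the test. Without Evi-iECKO replicate 1 Mical3 was at -1.52 and Limk1 at 0.65, and without replicate 2 they were at -0.76 and 1.26. Among the ligands Sema5b was at -0.92 (SE 0.25, limma adjusted p = 0.417), and Plxna4, a plexin for Sema3a and class 6 ligands, was at -0.49 (SE 0.21). Without replicate 1 and then replicate 2 of Evi-iECKO, Sema5b was at -0.82 and -1.02, and Plxna4 at -0.57 and -0.40. Sema4f was at 0.69 (SE 0.43), from 4.50 and 6.55 in Evi-iECKO, against 4.60, 4.69 and 5.21 in Evi-WT. Sema4f was high only in Evi-iECKO replicate 2, and without replicate 1 it passed, at 1.71 (limma adjusted p = 0.0330), with 1 array left in that group, whereas without replicate 2 it was at -0.34. The neuropilins, which carry class 3 signals, differed by 0.28 (Nrp2, SE 0.19) and -0.05 (Nrp1, SE 0.17). Nrp2 was at 0.40 without Evi-iECKO replicate 1 and 0.16 without replicate 2, and Nrp1 at 0.06 and -0.16.

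For the Rspo3 deletion 1 of the 46 was higher and none lower at an unadjusted p below 0.05, against 2.35% of all genes higher and 2.01% lower, and the list's median was -0.0030 against -0.01 over all genes. Sema5a, a membrane-bound ligand with thrombospondin repeats, was at 0.62 (SE 0.21, limma adjusted p = 0.9995). It read 5.32, 5.06 and 4.96 in Rspo3-iECKO, against 4.61 and 4.36 in Rspo3-WT. Its groups did not overlap, as for 7 of the 46 and 22.6% of all genes, and it was detected on 1 of the 2 Rspo3-WT arrays. Nrp2 was at -0.40 (SE 0.19), Sema3a at -0.40 (SE 0.23), Erbb2 at 0.28 (SE 0.19), Rnd2 at 0.22, Fes at -0.23, Plxna4 at 0.14 and Plxnc1 at -0.07. Of the 12 listed genes not measured, 8 had a probe that missed the detection filter, and these included Sema4c, Sema4d, Plxna3, Plxnb1 and Plxnb3.

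**Figure D5:**
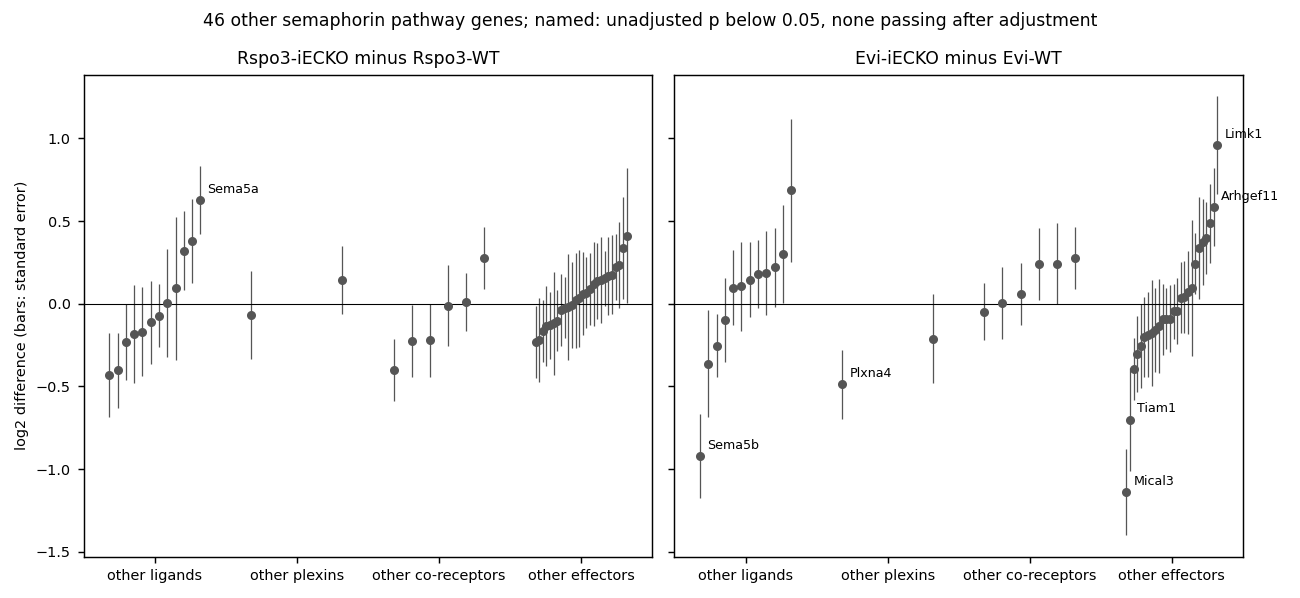
Log2 difference with its standard error of the 46 other measured genes of the pathway, by role, for Rspo3-iECKO minus Rspo3-WT and Evi-iECKO minus Evi-WT. Named genes had an unadjusted p below 0.05 and none passed after adjustment over all genes; Mical3 (-1.14) and Limk1 (0.96) lie farthest from 0 in the Evi/Wls line.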

How the data were processed

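Per the labels' protocols, RNA of sorted endothelial cells was isolated with a PicoPure kit, amplified by NuGEN single primer isothermal amplification and labelled with biotin for Illumina arrays. Per the file headers, the deposited values are a bead intensity and a detection p-value for each probe on each array, and a further table holds intensity that the authors normalized, still linear; the making of both is unknown here.

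Background correction and quantile normalization used neqc (offset 16, negative controls inferred from the detection p) in limma 3.58.1 (R 4.3.3), as log2. The filter, a detection p under 0.05 on 2 or more arrays, left 30017 of 46237 probes. Symbols came from the platform annotation, updated through RefSeq names of GRCm38.p6 (28620 probes by Entrez ID and 2637 by accession, 4527 kept as given); the brightest probe stood for a gene. All 10 arrays entered 1 model with a mean for each of the 4 groups and a shared spread, with Benjamini-Hochberg adjustment at 0.05. As separate animals are not stated, p-values reflect sample-to-sample spread that may be technical, and the number of arrays limits the precision (median SE of a difference 0.22). Values of single probes came from the same model over all kept probes. Where a probe was undetected on every array of a group, its fitted difference is not a measured size. The fit was tested on simulated data. Family genes were named if they passed, and otherwise as the 1 of smallest p per role and direction for each deletion; Arhgef11 and Tiam1, in a plot, were named after their values were seen. Members and lists were chosen with earlier results of these data known, so a planned test of the members between the control arms is given as a description. Promoters were searched with Python 3.11.15, and figures were drawn with matplotlib 3.10.9. Alternatives covered background correction, normalization, filters, probe choice, spread, replicate block and left-out arrays.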

Additional observations from a re-analysis of the deposited data

Results flagged for a closer look

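In 3 of the 18 detected member probes every deleted array of the Rspo3 line lay on the other side of its control mean from every deleted array of the Evi/Wls line. The share of all probes that did so was not counted, so nothing is read from the number. No test of the difference is read either, since the genes were chosen with these changes known. At the Plxnb2 probe the fitted Rspo3 effect minus the fitted Evi/Wls effect was 0.45 (0.25 and -0.20), but the probe was not well above background on either Evi-iECKO array, so that neither 0.45 nor -0.20 is a measured size. At the dimmest Sema3f probe the same difference was -0.32 (-0.19 and 0.13), and the other Sema3f probes did not show this. At the Sema6d probe of second brightness it was -0.43 (-0.08 and 0.35), and the Evi/Wls effect was 0.66 without Evi-iECKO replicate 1 and 0.04 without replicate 2.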

How the results depend on the processing

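No member passed in any comparison under any of the 21 or 22 alternatives, nor did any other pathway gene except 1, Sema4f, for the Evi/Wls deletion without Evi-iECKO replicate 1 (0 to 1 with arrays left out in turn). The number of member probes detected stayed 18 under both other thresholds. Over all genes the Evi/Wls deletion gave 0, but 24 without Evi-iECKO replicate 1, 2 without replicate 2 and 1 without Rspo3-iECKO replicate 3; the joint effect 0, up to 6 with a trended robust prior or without Evi-iECKO replicate 2; the difference 0, or 6 without Evi-iECKO replicate 1; the control lines 6, from 0 with no filter or the replicate block to 45 with median scaling. Plxna2 in the Evi/Wls line ranged from 0.73 with no background correction to 1.14 with the block, and from 0.97 to 1.23 with arrays left out; Sema3c from -1.06 with median scaling to -0.29 with the mean of its probes, and from -1.24 to -0.74 with arrays left out. Median scaling put all 8 members higher for the Rspo3 deletion (0.21 to 0.45), with the median of all genes at 0.11; the cause was not tested. With the replicate number as a block Plxna2 was 1.14 and Sema3c -0.97, and no member or pathway call changed. Deviations of same-numbered arrays correlated at -0.02 and 0.0002 in the Rspo3 line and 0.13 and -0.12 in the Evi/Wls line. Evi-iECKO replicate 2 and Evi-WT replicate 3 gave 0.23. In a group of 2 arrays the deviations mirror each other, so these values cannot decide whether the numbers are pairs. The main fit did not pair the arrays.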

Other observations

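Between the control arms, 5 of the 46 other pathway genes were higher and 3 lower in Rspo3-WT than in Evi-WT at an unadjusted limma p below 0.05, against 4.53% and 4.27% of all genes, and none passed after adjustment. They included Nrp2, a neuropilin gene detected on 2 of 3 Evi-WT arrays, and Kdr, a VEGF receptor gene and endothelial marker. Nrp1, the other neuropilin gene, differed by 0.17 (SE 0.17) and was not among them. Nrp2 read 5.12 and 4.83 in Rspo3-WT against 4.42, 4.09 and 4.47 in Evi-WT, a log2 difference of 0.65 (SE 0.19, limma adjusted p = 0.301). Kdr read 8.22 and 8.40 in Rspo3-WT against 7.66, 7.66 and 7.99 in Evi-WT, a log2 difference of 0.54 (SE 0.22, limma adjusted p = 0.504). These genes were named after their values were seen.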
